A study of Homo sapiens with 4 samples.

Results

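Long intergenic non-coding RNA genes that carry only a serial LINC number were compared between A549 cells that overexpress CBX7 and control A549 cells. The genes were selected on their counts: a row of the deposited gene table was taken when its symbol was LINC followed by digits and its counts summed to 200 or more over the 4 libraries. Of 1737 such rows in a table of 28278 genes, 612 had a count above 0 and 158 met the sum. The sum pools both groups, so it does not use the difference between them. But for 22 of the 158 it was reached only because 1 group was higher, and these 22 had to differ to some degree. That difference is in counts before scaling, so unequal depth of the libraries can be part of it. A549 is an established human lung adenocarcinoma line. The group labelled OE_CBX7 (2 libraries) was a stable line made with a lentivirus carrying a CBX7 expression construct, and the group labelled Control (2 libraries, genotype WT in the labels) was a stable line made in the same way with a control construct. Both groups therefore carried a lentiviral insertion, untransduced cells were not analysed here, and the labels give neither the promoter of the construct nor whether a line is 1 clone or a pool. Whether the 2 libraries of a group are separate cultures is not in the labels; p-values therefore speak only to the spread among these 4 libraries, which may be technical.

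Long non-coding RNAs are transcripts that are made and often spliced like messenger RNAs but are not known to encode a protein; some act on the gene next to them, others bind proteins or microRNAs, and for many LINC numbers no function is known. CBX7 is a chromodomain subunit of Polycomb repressive complex 1, which binds the Polycomb methyl mark on histone H3 and holds genes silent. Its chromodomain is also known to bind RNA, the antisense transcript of the INK4 locus being the best studied case.

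The deposited estimated counts summed to 90765502 and 88861255 in the OE_CBX7 libraries, against 88091494 and 69877585 in the Control libraries. The labelled change was present: CBX7 had 1783 and 1550 counts in OE_CBX7, against 689 and 596 in Control, a log2 fold change of 1.11 (SE 0.16, edgeR adjusted p = 0.000141). SOCS3, the inhibitor of cytokine signalling named in the study's title, had 1040 and 742 counts in OE_CBX7, against 3771 and 2783 in Control, and fell (log2 fold change -2.13, edgeR adjusted p = 1.87e-07). Levels are given below as CPM, the usual read count per library scaled for depth. KRT8, a keratin of simple epithelia, stood at 6308 and 6991 CPM in OE_CBX7 and at 6827 and 6982 CPM in Control, while the epithelial markers KRT19 and EPCAM were at most 1.61 CPM in any library. A list of 6 blood cell markers, of leukocytes apart from the red cell gene HBB, summed to 3.29 and 2.65 CPM in OE_CBX7, against 1.36 and 1.42 CPM in Control. Nearly all of it was CD14, and PTPRC, which encodes CD45, was at 0 in 1 library of each group and at most 0.0961 CPM in the others. The 4 endothelial markers summed to 2.88 and 3.68 CPM in OE_CBX7, against 1.61 and 0.836 CPM in Control, most of it CDH5, with PECAM1 at most 0.322 CPM. The 6 fibroblast markers had a larger sum, 8.91 and 8.03 CPM in OE_CBX7, against 5.55 and 7.95 CPM in Control, most of it COL1A1. The part of such transcripts in the results was not tested. In bulk RNA, fewer cells that hold a transcript and less of it per cell cannot be told apart.

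The start regions of 5 genes on which the results turn are shown as 300 bases that span the RefSeq start (GRCh38.p14, written in the direction of the gene), because they had the largest changes or because several of them moved together. LINC01914 (chr2:41933674-41933973, minus strand), LINC00346 (chr13:110870259-110870558, minus strand), LINC01138 (chr1:148459871-148460170, minus strand) and LINC01145 (chr1:145216003-145216302, minus strand) were lower with CBX7, and LINC01510 (chr7:116614608-116614907, minus strand) was higher. Capitals mark 4 motifs searched on both strands: the interferon response letters (GAAA and again GAAA after any 2 bases), the AP-1 letters TGANTCA, the antioxidant response letters TGACNNNGC and the CCAAT box.
LINC01914: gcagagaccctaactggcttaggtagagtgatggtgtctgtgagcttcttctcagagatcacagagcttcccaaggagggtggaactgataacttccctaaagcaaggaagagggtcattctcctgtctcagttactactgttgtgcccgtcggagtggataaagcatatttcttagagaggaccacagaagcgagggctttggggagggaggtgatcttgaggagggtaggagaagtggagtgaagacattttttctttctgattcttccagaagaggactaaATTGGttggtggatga
LINC00346: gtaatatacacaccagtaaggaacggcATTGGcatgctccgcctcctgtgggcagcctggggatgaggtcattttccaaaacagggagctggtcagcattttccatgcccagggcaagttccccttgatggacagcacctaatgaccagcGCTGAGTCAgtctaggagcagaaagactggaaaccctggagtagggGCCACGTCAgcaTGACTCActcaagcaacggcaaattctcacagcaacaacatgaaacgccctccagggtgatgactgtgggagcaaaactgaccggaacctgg
LINC01138: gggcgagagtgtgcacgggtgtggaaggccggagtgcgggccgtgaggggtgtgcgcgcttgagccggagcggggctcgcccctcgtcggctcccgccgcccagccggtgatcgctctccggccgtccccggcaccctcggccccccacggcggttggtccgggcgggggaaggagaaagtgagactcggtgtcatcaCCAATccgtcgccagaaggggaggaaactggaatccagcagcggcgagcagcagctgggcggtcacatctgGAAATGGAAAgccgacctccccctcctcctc
LINC01145: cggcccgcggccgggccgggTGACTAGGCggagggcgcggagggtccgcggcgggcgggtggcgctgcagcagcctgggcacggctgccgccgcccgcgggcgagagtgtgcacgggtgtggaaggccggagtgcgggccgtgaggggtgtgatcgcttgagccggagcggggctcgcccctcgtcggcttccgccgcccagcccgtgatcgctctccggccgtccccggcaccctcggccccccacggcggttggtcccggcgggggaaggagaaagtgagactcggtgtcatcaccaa
LINC01510: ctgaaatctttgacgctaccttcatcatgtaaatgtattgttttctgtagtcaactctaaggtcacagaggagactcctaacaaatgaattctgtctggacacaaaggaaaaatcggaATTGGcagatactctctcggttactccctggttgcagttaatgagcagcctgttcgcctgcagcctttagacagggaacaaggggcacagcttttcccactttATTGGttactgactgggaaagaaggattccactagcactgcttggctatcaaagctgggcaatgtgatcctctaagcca
The LINC00346 window held 2 AP-1, 2 antioxidant and 1 CCAAT match, and 1 AP-1 match overlapped an antioxidant match. LINC01138 held 1 interferon and 1 CCAAT match, LINC01145 1 antioxidant match, LINC01914 1 CCAAT match and LINC01510 2 CCAAT matches. The LINC01138 and LINC01145 windows shared an identical run of 54 bases. Of all 35116 RefSeq promoter windows of this length, 3.57% held the interferon letters, 7.71% AP-1, 13.3% the antioxidant letters and 34.6% CCAAT. Of the 120 non-coding members with a window, 5, 13, 25 and 47 held the same motifs in that order. A member was counted if any of its windows matched, while the shares of all windows count each window singly. The antioxidant letters stood in 7 of the 14 lower members with a window and in 1 of the 7 higher ones. In the same order, the interferon letters stood in 2 and 0, AP-1 in 2 and 1, and CCAAT in 8 and 3. The lower members with the antioxidant letters include LINC01145 and LINC00869, which hold them in an identical run of 152 bases. Differences between the groups of members were not tested. For CpG, the highest number was taken where a member had several windows. The median was then 24 in the 14 lower members, 11 in the 7 higher and 18 in the 99 that were not called. Over all windows, each counted singly, it was 14, which is not the same measure. These matches describe the letters of the windows and were tied to no binding measurement.

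Of the 158 LINC genes, 31 were called in edgeR's quasi-likelihood test at a Benjamini-Hochberg adjusted p under 0.05: 10 were higher and 21 were lower in OE_CBX7. Of all 17271 tested genes, 24.4% were called, 10.5% higher and 13.9% lower. The LINC share was 19.6% called, 6.33% higher and 13.3% lower. Among tested genes with 200 or more counts, 28.4% were called; in that range the share was 29.8% for protein-coding genes and 17.2% for the 668 other genes that RefSeq classes as long non-coding. These shares were not tested against each other. Depth differs between them: the median LINC gene had 717.5 counts over the 4 libraries and the median tested gene 5616. Of the 22 members that met the sum only through their higher group, 5 were called: LINC01914, LINC00346 and LINC01376 lower, LINC01510 and LINC00964 higher. Among the other 136 members, 8 were higher and 18 lower. With scaling by library totals alone, 15 LINC genes were higher and 17 lower, and over all genes 2487 were higher and 2033 lower, in place of 1809 and 2399.

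Single members moved while the group as a whole stayed nearly level. The median log2 fold change of the 158 was 0.11, against -0.00015 over all tested genes, with 92 above 0 and 66 below, while 21 of the 31 calls were lower. The median size of a change, whatever its sign, was 0.44, against 0.33 over all tested genes, and the range ran from -2.73 to 2.25. Of the called genes, 13 were at least 2-fold lower and 2 at least 2-fold higher. Both of these rises, 3 of the falls and both ends of the range belong to members that met the sum only through their higher group. Over the other 136 members the range ran from -1.64 to 1.02, with 10 called at least 2-fold lower and 0 at least 2-fold higher. Summed over the 158, LINC transcripts held 0.114% and 0.113% of all counts in OE_CBX7 and 0.109% and 0.109% in Control, so their total share was nearly level while single members moved several-fold.

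**Figure D1:**
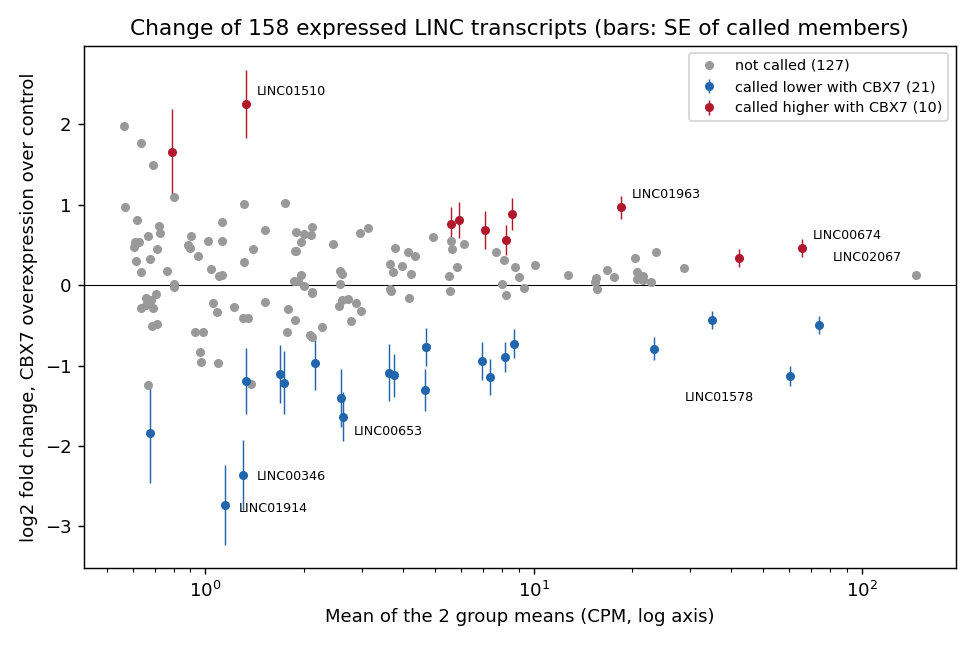
Log2 fold change (OE_CBX7 over Control) of each of the 158 LINC genes against its mean level in CPM on a log axis; bars are the standard errors of the called genes. The 21 called lower (blue) reach from -0.43 to -2.73 and lie at all levels, while the 10 called higher (red) reach from 0.34 to 2.25.

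The deepest falls were in transcripts of low to moderate level. The first described, LINC01914 and LINC00346, and LINC01376 below met the 200-count sum only through Control, so that some difference was required of them and their place at the head of the falls is a description. LINC01914, an uncharacterised gene with no coding gene closer than PKDCC at 114298 bases, had 28 and 27 counts in OE_CBX7, against 219 and 98 in Control. Both OE_CBX7 libraries lay far below the lower Control library, although the Control libraries themselves differed. Its mean level was 0.299 ± 0.00020 CPM in OE_CBX7 and 1.99 ± 0.78 CPM in Control (SD, n = 2 each), a log2 fold change of -2.73 (SE 0.49, edgeR adjusted p = 0.00120). LINC00346, now named PRECSIT and known as a p53-regulated transcript that acts on STAT3 in squamous skin carcinoma, had 45 and 33 counts in OE_CBX7, against 176 and 157 in Control. The groups were well apart and each pair of replicates close. PRECSIT averaged 0.423 ± 0.081 CPM in OE_CBX7 and 2.17 ± 0.18 CPM in Control, which is 5.11-fold lower (log2 fold change -2.35, SE 0.44, edgeR adjusted p = 0.00139). LINC00653, now LCDR, had 126 and 109 counts in OE_CBX7, against 340 and 273 in Control, and fell by 1.64 on the log2 scale (SE 0.31, edgeR adjusted p = 0.00149). In LCDR the Control levels were nearly equal at 3.95 and 4.00 CPM.

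Among transcripts with more counts, LINC01578 had the smallest adjusted p of the 31. It is the gene now named CHASERR, which lies just upstream of the chromatin remodeller CHD2 and in mice is known to restrain Chd2. CHASERR had 3311 and 3642 counts in OE_CBX7, against 7632 and 5243 in Control, or 37.9 ± 3.5 CPM against 82.7 ± 8.3 CPM (SD, n = 2 each). It was 2.18-fold lower with no overlap (log2 fold change -1.13, SE 0.12, edgeR adjusted p = 1.05e-05). LINC00938 had 473 and 376 counts in OE_CBX7, against 1027 and 573 in Control, and fell by 1.14 (SE 0.22, adjusted p = 0.00212). LINC01004 had 567 and 489 counts in OE_CBX7, against 950 and 704 in Control, and fell by 0.90 (adjusted p = 0.00343). In both of these the OE_CBX7 libraries lay below both Control libraries once scaled. LINC00707 had 1787 and 1362 counts in OE_CBX7, against 2639 and 1936 in Control, and fell by 0.79 (SE 0.14, adjusted p = 0.00125).

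A group of 4 lower genes lies on chromosome 1, on either side of the centromere, and shares stretches of sequence. LINC01138, known to bind the methyltransferase PRMT5 in liver cancer, had 290 and 208 counts in OE_CBX7, against 643 and 397 in Control (log2 fold change -1.30, SE 0.26, edgeR adjusted p = 0.00244). LINC01145 had 175 and 88 counts in OE_CBX7, against 367 and 221 in Control (log2 fold change -1.40, SE 0.36, adjusted p = 0.0120). LINC00869 had 96 and 101 counts in OE_CBX7, against 211 and 147 in Control (log2 fold change -1.10, adjusted p = 0.0412). LINC00623 had 292 and 138 counts in OE_CBX7, against 334 and 410 in Control (log2 fold change -1.09, adjusted p = 0.0383), and its OE_CBX7 replicates were the furthest apart of any called LINC gene, at 2.04-fold. The longest GENCODE transcript of LINC00623 matches LINC01145 at 99.2% identity over its whole length, LINC01145 matches LINC02591 at 99.7%, and LINC00869 matches the coding gene FAM91A1 at 95.8% over 62.9% of its length. How shared reads were counted is not given in the sources used here, so the falls of LINC00623, LINC01145 and LINC00869 are uncertain, and changes of the copies cannot be told apart; LINC01138 had no such copy. Their start windows also share runs, the longest being 152 bases between LINC00869 and LINC01145 and 109 bases between LINC00623 and LINC01138. The LINC00869 call was lost without any 1 of the 4 libraries (adjusted p 0.0752 to 0.183); LINC01145 was lost without Control library 1 (0.0994) or OE_CBX7 library 2 (0.0973), and LINC00623 without Control library 2 (0.281) or OE_CBX7 library 2 (0.257).

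The other falls were of smaller size or less firm. LINC01376 had 27 and 27 counts in OE_CBX7, against 70 and 89 in Control (log2 fold change -1.84, SE 0.62, edgeR adjusted p = 0.0434). LINC01186 had 124 and 69 counts in OE_CBX7, against 201 and 171 in Control (log2 fold change -1.21, adjusted p = 0.0366). LINC01910 had 67 and 82 counts in OE_CBX7, against 173 and 116 in Control (log2 fold change -1.19, adjusted p = 0.0493). These 3 calls rest on few counts: LINC01376 and LINC01910 were lost without any 1 of the libraries (adjusted p 0.0505 to 0.225 and 0.0834 to 0.237), and LINC01186 was lost without Control library 1, Control library 2 or OE_CBX7 library 2 (0.0951, 0.125 and 0.268). LINC00941, also called lncRNA-MUF, had 242 and 193 counts in OE_CBX7, against 461 and 336 in Control (log2 fold change -1.12, adjusted p = 0.00728; 0.0604 without OE_CBX7 library 2). LINC00472, studied for its lower level in aggressive breast tumours, had 499 and 383 counts in OE_CBX7, against 953 and 497 in Control (log2 fold change -0.94, adjusted p = 0.0107). The LINC00472 call was lost without Control library 1 (0.139) or OE_CBX7 library 2 (0.0626). LINC01347 had 144 and 123 counts in OE_CBX7, against 222 and 213 in Control (log2 fold change -0.97, adjusted p = 0.0471); it is a near copy of 8 other genes, several of them GTF2I pseudogenes, so its source is uncertain, and it was lost without any 1 library (0.0739 to 0.214). LINC01061 fell by 0.77 (adjusted p = 0.0277) and was also lost without any 1 library (0.0698 to 0.134). LINC00941, LINC00472, LINC01347 and LINC01061 stand outside the rule for named genes and were chosen after their values were seen, as were the other called genes described here that are in neither list of 10 nor among the most abundant.

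**Figure D2:**
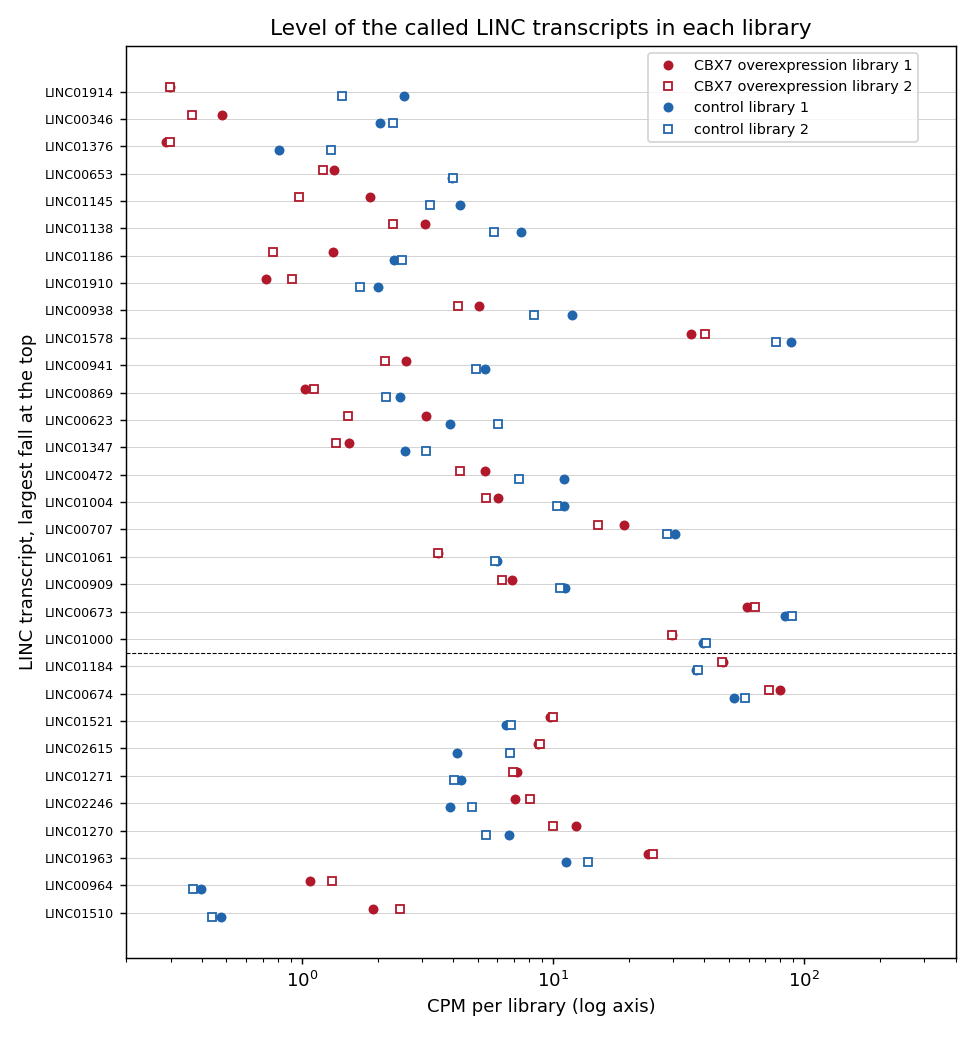
CPM of the 31 called LINC genes in each library on a log axis; red marks are OE_CBX7 and blue marks Control, filled for library 1 and open for library 2, and the dashed line parts the 21 lower (above) from the 10 higher genes. In none of the 31 do red and blue marks cross, but the gap is wide for LINC01914 and LINC01510 and narrow for LINC00623.

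On the other side, LINC01510 rose most. It and LINC00964 met the 200-count sum only through OE_CBX7, so their place among the rises is likewise a description. It is now named COMETT and is transcribed from the strand opposite MET, the receptor of hepatocyte growth factor. COMETT had 180 and 222 counts in OE_CBX7, against 41 and 30 in Control. Both OE_CBX7 values were well above both Control values, at 2.19 ± 0.38 CPM against 0.458 ± 0.026 CPM (SD, n = 2 each). The log2 fold change was 2.25 (SE 0.43, edgeR adjusted p = 0.00161), or 4.77-fold higher. LINC01963 had 2239 and 2257 counts in OE_CBX7, against 971 and 940 in Control. The replicates of each group were close, and the level was 24.5 ± 0.78 CPM in OE_CBX7 and 12.5 ± 1.8 CPM in Control (log2 fold change 0.97, SE 0.15, edgeR adjusted p = 0.000309). LINC00964 had 101 and 119 counts in OE_CBX7, against 34 and 25 in Control (log2 fold change 1.65, adjusted p = 0.0398), and its call was lost without any 1 library (0.0845 to 0.208), with DESeq2 (0.0509), with limma-voom (0.0532) and with the replicate block (0.059).

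LINC01270 and LINC01271 rose together and are neighbours on chromosome 20, transcribed from opposite strands with 4209 bases in common (chr20:50310711-50314919). LINC01270 had 1151 and 902 counts in OE_CBX7, against 572 and 367 in Control (log2 fold change 0.89, SE 0.20, edgeR adjusted p = 0.00517). LINC01271 had 673 and 624 counts in OE_CBX7, against 371 and 275 in Control (log2 fold change 0.76, adjusted p = 0.0205). Because the use of strand in the counting is not given, reads from the common stretch cannot be told apart. They were the only pair of the 158 that overlapped, and 5 pairs in all lay within 50 kb of each other. In another of these pairs LINC00673 fell and LINC00511, 5236 bases away, had a log2 fold change of 0.13 (adjusted p = 0.862). LINC02246, now ASMER1 and known from fat cells, had 659 and 728 counts in OE_CBX7, against 333 and 325 in Control (log2 fold change 0.81, adjusted p = 0.0164). LINC02615 had 812 and 798 counts in OE_CBX7, against 358 and 458 in Control (log2 fold change 0.69, adjusted p = 0.0470), and LINC01521 had 906 and 900 counts in OE_CBX7, against 558 and 465 in Control (log2 fold change 0.56, adjusted p = 0.0393). The LINC01270 call was lost without OE_CBX7 library 1 (0.0692), and LINC01271 without Control library 2 or either OE_CBX7 library (0.0646 to 0.126). ASMER1 was lost without Control library 1 (0.0823) or OE_CBX7 library 2 (0.133), LINC02615 without Control library 1 or either OE_CBX7 library (0.108 to 0.247), and LINC01521 without any 1 library (0.0629 to 0.205).

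Among the most abundant members the changes were small, apart from CHASERR. LINC02067, the highest in CPM, had 13153 and 14823 counts in OE_CBX7, against 11879 and 9694 in Control; its levels of 140.5 and 164 CPM in OE_CBX7 overlapped the 138 and 142 CPM of Control (log2 fold change 0.12, edgeR adjusted p = 0.453). LINC00673, known in pancreatic cancer to promote the degradation of the phosphatase PTPN11, had 5553 and 5753 counts in OE_CBX7, against 7232 and 6090 in Control, and fell by 0.49 (SE 0.11, adjusted p = 0.00457; 0.0627 without OE_CBX7 library 1). LINC00674 had 7496 and 6525 counts in OE_CBX7, against 4540 and 3958 in Control, and rose by 0.46 (SE 0.11, adjusted p = 0.00858; 0.107 without OE_CBX7 library 1). A stretch of LINC00674 is 95.3% identical to the coding gene SMURF2 over 50% of its longest transcript, so part of its reads may be shared. LINC01000 had 2779 and 2690 counts in OE_CBX7, against 3401 and 2782 in Control, and fell by 0.43 (adjusted p = 0.0146; 0.127 without OE_CBX7 library 1 and 0.0954 without library 2). LINC00473, a transcript induced through cAMP and CREB and known from lung tumours without LKB1, had 2933 and 2740 counts in OE_CBX7, against 2480 and 1659 in Control (log2 fold change 0.22, adjusted p = 0.250). LINC01123 had 2712 and 2264 counts in OE_CBX7, against 1944 and 1231 in Control, and just missed the threshold (log2 fold change 0.41, adjusted p = 0.0534). Its longest transcript is 99.8% identical to another member, LINC01106, over 70.9% of its length, so shared reads cannot be told apart; LINC01106 had a log2 fold change of -0.07 (adjusted p = 0.892). Levels were also set per kilobase of exon, for a rough comparison between genes. The annotation used for counting is not given, so these lengths may differ from those of the counted genes. Only the 141 members with a GENCODE exon length could be ranked, and LINC00673 and LINC01000 were not among them. Of the 141, LINC00674 led with 104 CPM per kb in OE_CBX7 and 75.4 in Control. LINC02067 followed with 53.6 CPM per kb in OE_CBX7 and 49.2 in Control, then LINC02506 with 10.8 in OE_CBX7 and 11.7 in Control. CHASERR stood at 7.02 CPM per kb in OE_CBX7 and at 15.3 in Control.

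Because some long non-coding RNAs act on the gene beside them, each member was set beside protein-coding genes within 5 kb. Of the 158, 49 had such a neighbour in RefSeq, and 50 pairs over 43 members had a tested neighbour. Both genes were called in 4 pairs, the LINC gene alone in 3, the neighbour alone in 10 and neither in 33. The called neighbours were 7 higher and 7 lower, so 14 of 50 were called. Of coding genes with 200 or more counts 29.8% were called, and of all tested genes 24.4%. The sets are unlike, since the neighbours had no count threshold and include genes near the floor such as OR4M2. HSF2BP also counts for both LINC00313 and LINC00319. Over the 50 pairs, which share the same 4 libraries, Pearson's r between the log2 fold changes was 0.14, a description across genes.

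**Figure D3:**
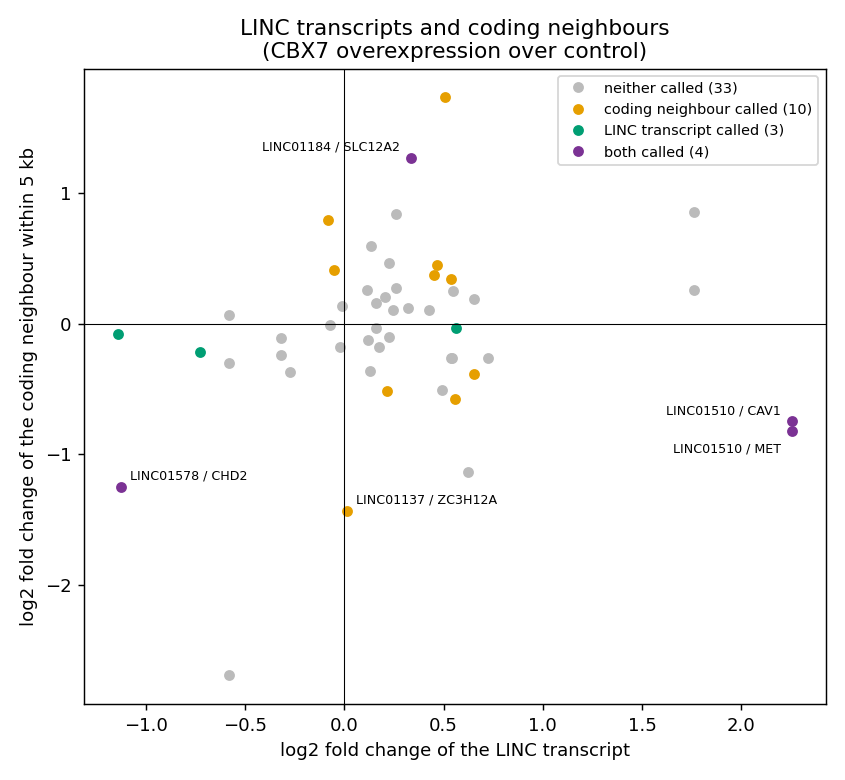
Log2 fold change (OE_CBX7 over Control) of the coding neighbour against that of the LINC gene for the 50 tested pairs within 5 kb; colours give which of the pair was called. CHASERR and CHD2 lie in the lower left (-1.13 and -1.25), LINC01184 and SLC12A2 in the upper right (0.34 and 1.27), and COMETT lies far right with MET and CAV1 below 0.

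CHASERR and CHD2 moved together. CHD2, which starts 1577 bases beyond the end of CHASERR on the same strand, had 118 and 108 CPM in OE_CBX7, against 281 and 255 CPM in Control (log2 fold change -1.25, SE 0.10, edgeR adjusted p = 5.97e-07). The sizes of both falls were alike. LINC01184, now SLC12A2-DT, starts 591 bases from SLC12A2, the sodium, potassium and chloride cotransporter NKCC1, and runs the other way. LINC01184 had 4425 and 4233 counts in OE_CBX7, against 3181 and 2573 in Control, with both OE_CBX7 libraries above both Control libraries by a small margin (log2 fold change 0.34, SE 0.11, adjusted p = 0.0427; lost without any 1 library, 0.0554 to 0.234). SLC12A2 had 599 and 500.3 CPM in OE_CBX7, against 226 and 230 CPM in Control, and rose by 1.27 (adjusted p = 9.05e-07).

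COMETT and its neighbours moved apart. MET, which it overlaps, had 421 and 381 CPM in OE_CBX7, against 761 and 654 CPM in Control, and fell by 0.82 (SE 0.11, edgeR adjusted p = 6.54e-05). CAV1, encoding caveolin-1 and 2409 bases away, had 200.2 and 209 CPM in OE_CBX7, against 333 and 354 CPM in Control, and fell by 0.75 (adjusted p = 4.65e-05). COMETT was thus higher where the genes around it were lower, and reads of MET and COMETT in the overlap cannot be told apart without strand. LINC01137, now LITATS1 and known to dampen TGF-beta signalling, starts 137 bases from ZC3H12A, the gene of the RNase regnase-1, on the opposite strand. LITATS1 had 723 and 755 counts in OE_CBX7, against 586 and 626 in Control, and its scaled levels overlapped (log2 fold change 0.01, SE 0.20, adjusted p = 0.980). ZC3H12A had 18.1 and 15.4 CPM in OE_CBX7, against 43.6 and 46.7 CPM in Control, and fell by 1.43 (adjusted p = 2.06e-06).

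In other pairs the LINC gene changed and its neighbour missed the threshold. LINC00938 fell by 1.14, while ARID2, a subunit of a SWI/SNF remodeller 1785 bases away, had a log2 fold change of -0.08 (SE 0.11, edgeR adjusted p = 0.679). LINC00909, now ZNF407-AS1, had 640 and 565 counts in OE_CBX7, against 956 and 724 in Control, and fell by 0.73 (adjusted p = 0.009997; 0.0967 without OE_CBX7 library 2), while ZNF407, whose start lies 35 bases away, stood at -0.21 (SE 0.18, adjusted p = 0.456). For LINC01521 and PATZ1, 413 bases apart, the log2 fold changes were 0.56 and -0.03 (adjusted p of PATZ1 0.873). The reverse was seen for LINC00473 inside PDE10A, a phosphodiesterase that breaks down cyclic nucleotides, which fell by 0.51 (adjusted p = 0.00710). LINC00261, beside the endoderm regulator FOXA2, had 610 and 611 counts in OE_CBX7, against 361 and 335 in Control, and missed the threshold (log2 fold change 0.55, adjusted p = 0.0876), as did FOXA2 (0.25, adjusted p = 0.149). In all, 14 pairs were divergent, with starts at most 1000 bases apart on opposite strands, and in these 2 LINC genes and 2 coding partners were called, neither share above that of all tested genes (24.4%), LINC01184 and SLC12A2 being the pair in which both were.

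Agreement between replicates followed the number of counts. In 91 of the 158 LINC genes (57.6%) both OE_CBX7 libraries lay on the same side of both Control libraries, against 62.8% of all tested genes. Of these, 53 were higher and 38 lower, and 60 were not called. All 31 called genes were among the 91. Of the 58 members with 200 or more but under 500 counts, 6 were called (10.3%, against 11.4% of all tested genes in that range), with a median standard error of 0.57. Of the 61 with 500 or more but under 2000 counts, 10 were called (16.4%, against 21.8%), with a median standard error of 0.31. Of the 39 with 2000 or more, 15 were called (38.5%, against 31.7%), with a median standard error of 0.16. A 2-fold change in the lowest band was thus less than 2 standard errors for the median member, and 8 members with at least a 2-fold change were not called. Among them were LINC01389 (log2 fold change 1.76, edgeR adjusted p = 0.0533) and LINC01315 (1.98, edgeR adjusted p = 0.0538). Both met the 200-count sum only through OE_CBX7, so some difference was required of them and their sizes are a description.

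**Figure D4:**
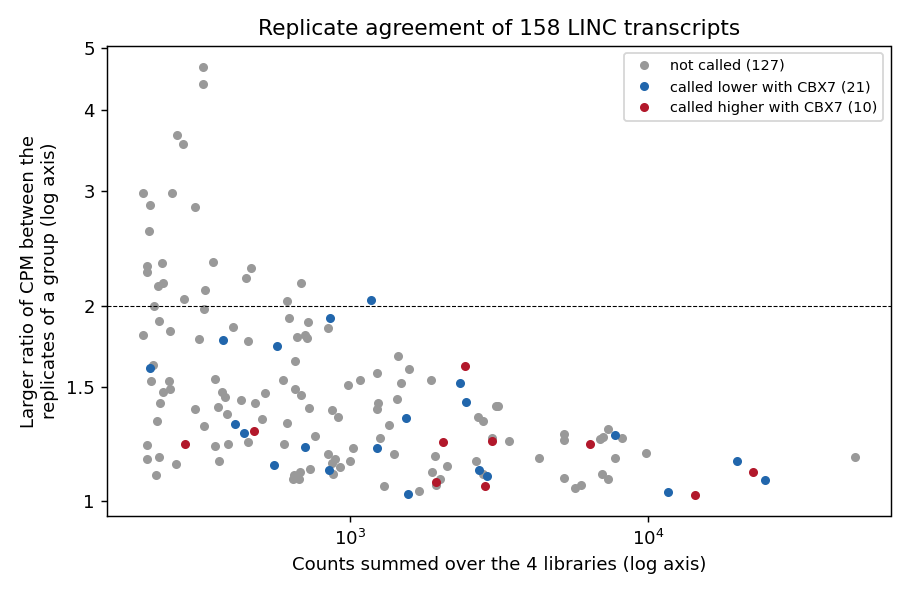
Larger of the ratios between the replicates of OE_CBX7 and of Control for each of the 158 LINC genes (log axis) against its counts summed over the 4 libraries (log axis); the dashed line marks a 2-fold ratio. The 22 genes above the line have mostly under 500 counts, and 1 of them, LINC00623, is called.

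The median of the larger replicate ratio was 1.34, and 22 members had replicates over 2-fold apart. LINC01569 was the least even, with 121 and 25 counts in OE_CBX7, against 67 and 108 in Control. LINC00470 had 124 and 79 counts in OE_CBX7, against 100 and 18 in Control, and LINC02709 47 and 98 counts in OE_CBX7, against 30 and 87 in Control. None of these 3 was called, and in each the groups overlapped. At the threshold that chose the members, LINC01315 and LINC02212 with 201 counts each and LINC00313 with 208 were just inside. LINC02057, LINC02175 and LINC02595 with 196 counts each were just outside. Of all tested genes under 200 counts, 5.86% were called.

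Leaving out 1 library at a time, changing the scaling, filter or tool, or adding the replicate number to the fit changed the sign of none of the 31 called genes. Across these 11 alternatives, 10 calls were kept throughout. These were the falls of LINC01914, PRECSIT, LCDR, LINC01138, LINC00938, CHASERR, LINC01004 and LINC00707 and the rises of COMETT and LINC01963. The other 21 calls were lost in at least 1 fit with a library left out. Of the 10 kept calls, LINC01914, PRECSIT and COMETT belong to members that met the count sum only through their higher group. Some difference was required of these members by the selection, so that their calls were kept is a description.

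Genes with names of their own, from a list of 40 described as long non-coding RNAs, were read off the same fit. The list also holds SMIM30, NBDY and MTLN, which are now known to encode small proteins. Of 34 tested, 4 were higher (OIP5-AS1, DANCR, SMIM30 and NBDY), 10 lower and 20 not called, and the median log2 fold change was -0.01. Over all tested genes, 24.4% were called, 10.5% higher and 13.9% lower. These shares were not tested against each other. NRIR, a neighbour of the interferon gene CMPK2, was listed at 0 in both OE_CBX7 libraries and had 149 and 194 counts in Control. BISPR, beside the interferon gene BST2, had 33 and 11 counts in OE_CBX7, against 350 and 310 in Control (log2 fold change -4.17, edgeR adjusted p = 1.59e-05). A second list, of interferon-stimulated genes, was chosen because earlier results of these data showed that programme lower with CBX7. All 25 of its tested genes were lower in OE_CBX7, with a median of -7.18, which is therefore a description. PVT1, the long non-coding neighbour of MYC, had 1837 and 1594 counts in OE_CBX7, against 3637 and 2968 in Control (log2 fold change -1.20, adjusted p = 7.11e-06). DANCR, a snoRNA host, rose by 1.10, with 3279 and 3865 counts in OE_CBX7, against 1388 and 1377 in Control (adjusted p = 8.96e-05). GAS5 and ZFAS1, which also host snoRNAs, fell by 0.66 and 0.73 (adjusted p = 0.000315 and 0.000137). MALAT1 had 75284 and 210231 counts in OE_CBX7, against 27100 and 167809 in Control; the second library of each group was far above the first, and the transcript varied with the library more than with the group.

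Of 17 Polycomb subunits, 4 were higher and 3 lower. Of all tested genes, 10.5% were called higher and 13.9% lower, and the list was not tested against them. Beside CBX7 itself, its paralogs CBX2 (log2 fold change 0.65), CBX8 (0.49) and CBX6 (0.32) were higher (edgeR adjusted p = 0.000663, 0.0327 and 0.0379). PHC2, EZH1 and EED fell by 0.72, 0.58 and 0.42 (adjusted p = 0.000387, 0.00261 and 0.0202).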

How the data were processed

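RNA sequencing of total RNA was analysed for 2 OE_CBX7 and 2 Control libraries of A549 cells. The values are the authors' deposited estimated counts, whole numbers per gene symbol and library, so rounding changed 0 of them; a 0 may also be a failed estimate. The submitters' processing notes list the build hg38 and the tools DESeq2, StringTie 2.2.1 and HISAT2 2.2.1 with no roles. No source used here gives the annotation, the strandedness or the handling of shared reads. edgeR 4.0.16 in R 4.3.3 (filterByExpr, TMM, robust quasi-likelihood fit with group as its term) was run on the whole table, and every adjusted p is its Benjamini-Hochberg value over 17271 genes. CPM uses TMM-scaled totals, and SD is over n = 2. The count tests were run on simulated counts first. The members and lists were chosen with earlier results of these data known. By rule the text names the 10 largest rises and 10 largest falls among called members with no overlap and a mean normalised count of 50 or more, the 8 with the highest CPM, the 3 on each side of the threshold, the 3 with the least even replicates, and CBX7, SOCS3 and neighbours within 5 kb; others were chosen after their values were seen. Positions and promoters are RefSeq GRCh38.p14 (140 members matched by symbol, 18 by synonym, 157 of them non-coding, since LINC01279 is now a synonym of the coding gene CCDC80). Exon lengths (141 members) and sequence copies (at least 95% identity over 50% of the longest transcript) are from GENCODE 29. Alternatives were scaling, filter, DESeq2 1.42.0, limma-voom 3.58.1, a replicate block, each library left out, and other member thresholds.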

Additional observations from a re-analysis of the deposited data

How the results depend on the processing

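For the count of LINC genes called higher (10), lower (21) and not overlapping (91), and for their median log2 fold change (0.11), other settings were tried. Leaving out 1 library gave 3 to 7 higher, 11 to 15 lower and a median of 0.07 to 0.15; the 3 came without OE_CBX7 library 1 and the 11 without OE_CBX7 library 2. Over all genes the higher calls then ran from 1021 to 1790 and the lower from 1689 to 2134. Fits with fewer libraries have less to estimate the spread from. Library totals alone moved the LINC median to 0.18 and that of all genes to 0.07. Among the 63 members with 1000 or more counts, 12 were lower, 8 higher and 39 did not overlap, and among the 124 members with a GENCODE match and no near-identical copy, a choice made after seeing the data, 11 were lower and 8 higher; both sets are smaller. With the 204 LINC genes of 100 or more counts, 13 were higher and 22 lower. DESeq2 gave 9 higher and 18 lower, limma-voom 10 and 21, no filter 13 and 21, and a mean count of 50 or more 13 and 23. With the replicate block, 10 were higher and 17 lower, with a median of 0.11, and LINC01376, LINC01910, LINC00869, LINC01347 and LINC00964 lost their call (adjusted p 0.0682, 0.0637, 0.0538, 0.0601 and 0.059). The labels do not say that the replicate numbers pair the libraries; deviations of same-numbered libraries correlated at 0.11, a single value, since the deviations of 2 libraries mirror each other. Of the 21 calls lost without 1 library, 6 were also lost under another setting: the 5 just named and LINC00623 (0.0505 with library totals alone). Low counts limit the smaller members.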

Other observations

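Under the 200-count threshold, 157 further LINC rows were tested and 14 were called, 7 higher and 7 lower in OE_CBX7; of all tested genes under 200 counts, 5.86% were called. Of these, 6 were listed at 0 in both OE_CBX7 libraries and 3 at 0 in both Control libraries; with so few counts a 0 may be a failed estimate, and the folds given are lower bounds against a floor of 3 counts per library. LINC02033 was at 0 in OE_CBX7, against 38 and 36 counts in Control, at least 14.8-fold lower; it lies 4319 bases from TRANK1, which fell by 5.22 on the log2 scale (edgeR adjusted p = 4.00e-12). LINC02574 was at 0 in OE_CBX7, against 18 and 18 counts in Control, at least 7.24-fold lower; it lies 3342 bases from the interferon-stimulated gene IFI6, which fell by 6.39 (adjusted p = 0.00914). LINC00944 was at 0 in OE_CBX7, against 31 and 22 counts in Control, at least 10.4-fold lower, with no coding gene within 288239 bases. In the other direction, LINC01978 had 105 and 59 counts in OE_CBX7, against 5 and 5 in Control (log2 fold change 3.74, adjusted p = 0.00490), and LINC01659 had 50 and 56 counts in OE_CBX7, against 6 and 0 in Control (3.92, adjusted p = 0.0338). LINC02800 had 22 and 20 counts in OE_CBX7 and was at 0 in Control, at least 5.80-fold higher. These genes were chosen after their values were seen. The rows at 0 in both libraries of a group passed the low-count filter (filterByExpr) only through the counts of the other group. LINC01978 and LINC01659, with so few Control counts, passed it only through OE_CBX7. Some difference was thus required of all these rows, and their calls, adjusted p and folds are a description.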
